A study of Saccharomyces cerevisiae with 16 samples.

Results

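The mRNA levels of budding yeast, *Saccharomyces cerevisiae*, were compared between cells with and without eIF4B after a shift to 15 °C. The comparison takes in every gene whose normalised mRNA value averaged 10 or more over both genotypes, and all 5190 genes of the 15 °C table met that limit, of 5338 genes listed at 15 °C or 37 °C in the series. The lowest means were 10.7 for *UBC11* (log2 3.6 in wild type, 3.2 in *tif3*Δ) and 11.1 for *SPR1* (3.7 and 3.2), and no listed gene lay outside the limit. The wild type was strain FJZ46 with an intact *TIF3* gene, and the mutant was strain FJZ52 with *TIF3* deleted. Both were grown in synthetic complete medium, shifted to 15 °C, and given cycloheximide, which stalls elongating ribosomes, for a short time before they were harvested. The labels give each genotype 2 biological replicates of mRNA, 4 of the series' 16 libraries. The same strain names, medium and treatment are given for the cells shifted to 37 °C, whose values are set beside those at 15 °C below.

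eIF4B, the product of *TIF3*, helps the RNA helicase eIF4A to unwind mRNA leaders and helps the small ribosomal subunit to load onto mRNA. Yeast can grow without it, but *tif3* mutants are known for poor growth in the cold. mRNA abundance itself is set by transcription and decay, so a difference in mRNA level is a separate readout from a difference in translation.

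The deposited table holds 1 log2 normalised value for each gene and genotype, rounded to 0.1, with the libraries of a genotype combined. A step of 0.1 is 1.07-fold. No difference below has an error, a replicate check or a test, "higher" and "lower" compare the authors' group values for *tif3*Δ with those for wild type, and how deeply the mRNA was sequenced is unknown. The values are not divided by gene length, so they compare a gene with itself and not one gene with another. The values are normalised between genotypes by a step that is not described, so a change common to all mRNAs cannot be seen, and in a bulk culture a shift in the mix of cell states cannot be told apart from a shift within each cell.

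The mRNAs that mark mating type differed between the temperatures. At 15 °C all 7 genes specific to **a** cells were listed, with log2 levels of 5.9 to 10.9 in the wild type and 5.7 to 11.0 in the mutant. Of 4 α-specific genes, the 2 listed at 15 °C were *SAG1* (6.0 and 5.9) and *STE3* (4.4 and 3.2). At 37 °C the α-specific genes stood at 7.4 to 12.1 in the wild type and 11.2 to 14.4 in the mutant, while the **a**-specific genes stood at 1.1 to 8.2 and 5.6 to 11.5. *URA3* (13.0 in wild type, 11.8 in *tif3*Δ) and *MET17* (8.6 and 7.5, and overlapping another annotated gene) had values at 15 °C and were not listed at 37 °C. The part of these marker differences in any comparison of the temperatures was not tested, and both genotypes at 15 °C carried the **a**-cell mRNAs.

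*TIF3* (YPR163C) itself stood at log2 10.6 in wild type at 15 °C, and at 6.4, 18.4-fold lower, in *tif3*Δ. At 37 °C it stood at 11.2 and 3.1. The drop was thus smaller at 15 °C, and some *TIF3* signal remained in the *tif3*Δ value there. The source of that signal was not tested. The genes on either side of *TIF3* were close to level, *MMS1* at 7.5 and 7.6 and *ORC4* at 6.5 and 6.6 (these neighbours were chosen after their values were seen). *TIF3* was left out of every count that follows, which leaves 5189 genes.

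Most mRNAs differed little between the genotypes. The median log2 difference was 0, the quartiles were -0.2 and 0.2, and about 90% of the genes lay between -0.6 and 0.7. In *tif3*Δ, 421 genes (8.11%) had mRNA at least 1.5-fold above wild type, and 384 (7.40%) were lower by that size. At least 2-fold differences were found for 84 genes in each direction (1.62%). By any size, 2329 genes (44.9%) were higher, 2265 (43.7%) lower and 595 had the same rounded value. These percentages are the background against which the gene groups below can be read. All gene lists were chosen with earlier results of these data known, so their counts describe the lists and are not independent evidence.

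**Figure D1:**
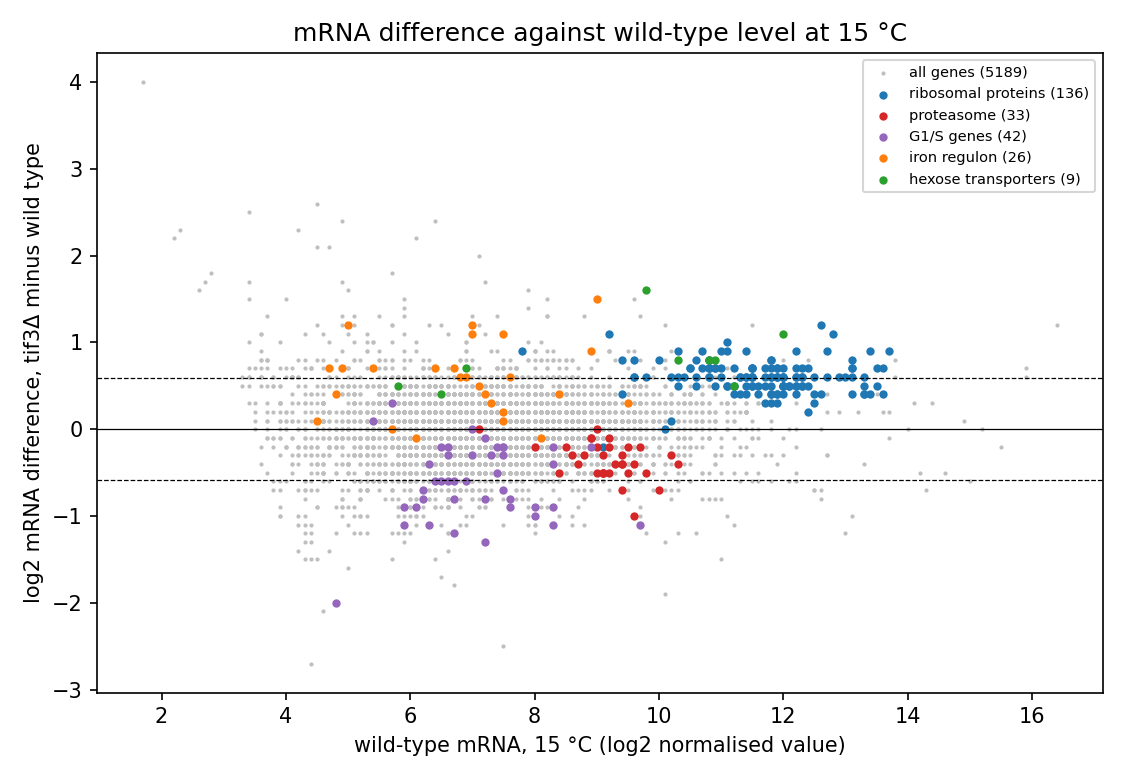
Log2 mRNA difference at 15 °C (*tif3*Δ minus wild type, vertical axis) against the log2 normalised wild-type mRNA value (horizontal axis), 1 point a gene, with 5 gene groups in colour and dashed lines at 1.5-fold. The 136 ribosomal protein genes lie almost entirely above 0 and the 33 proteasome genes at or below 0.

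The highest differences included genes of aromatic amino acid breakdown, vitamin B6 synthesis and small-molecule oxidoreductases and transporters. *ARO10*, the phenylpyruvate decarboxylase of the Ehrlich pathway to fusel alcohols, had a log2 level of 4.5 in wild type and 7.1 in *tif3*Δ, 6.06-fold higher. *ARO9*, the aromatic aminotransferase of the same pathway, went from 5.7 to 7.5, 3.48-fold higher. Both are known to be induced by aromatic amino acids through the activator Aro80, and both were also higher at 37 °C, at 8.5 against 10 and 9.1 against 10.3. *SNZ1*, which makes vitamin B6, stood at 6.4 and 8.8, 5.28-fold higher. *SNO1*, its partner enzyme and divergent neighbour, stood at 1.7 and 5.7, and was chosen after its values were seen because its mean lay below the level set for this ranking. The pair was also higher in *tif3*Δ at 37 °C, with *SNZ1* at 8.3 and 10 and *SNO1* at 5.4 and 8.2.

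The old yellow enzyme *OYE3*, an NADPH oxidoreductase, had log2 levels of 4.9 and 7.3, and *OSI1* (YKL071W) 3.4 and 5.9. YCR102C stood at 6.1 and 8.3 and YLR460C at 7.1 and 9.1. The presumed drug transporter *YHK8* stood at 4.7 and 6.8. All of these were 4-fold or more higher in *tif3*Δ, and the footprints of each were higher as well, with log2 footprint differences of 2.59 for *OYE3*, 3.84 for *OSI1*, 3.19 for YCR102C, 2.99 for YLR460C and 3.41 for *YHK8*. The other genes among the 12 highest were YJL213W (4.2 and 6.5), the plasma membrane heat shock protein *HSP30* (4.5 and 6.6), *NCA3* (7.2 and 8.9) and *TDA6* (4.9 and 6.6). *HSP30* and *NCA3* went the other way at 37 °C, where *HSP30* stood at 7.7 and 6.7 and *NCA3* at 7.5 and 6.7.

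The lowest differences included the mating-type switching endonuclease gene, genes of methionine use, and genes of the cell cycle and DNA repair. *HO*, the endonuclease, had log2 levels of 7.5 in wild type and 5.0 in *tif3*Δ, 5.66-fold lower. It was also lower at 37 °C, at 9.8 against 7.4. *SAM2*, an S-adenosylmethionine synthetase, stood at 10.1 and 8.2, 3.73-fold lower, and *MET6*, the methionine synthase, at 11.0 and 9.5, 2.83-fold lower. *MXR1*, which repairs oxidised methionine, stood at 6.5 and 4.8. These sulfur genes did not all keep that direction at 37 °C, where *MET6* stood at 10 and 11.4.

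*MCD1*, a cohesin subunit, stood at 7.2 and 5.9, and *ACM1*, an inhibitor of the anaphase-promoting complex, at 5.9 and 4.6. The DNA glycosylase *MAG1* stood at 5.7 and 4.2, and *SFG1*, a transcription factor of pseudohyphal growth, at 6.4 and 4.9. *UGP1*, which makes UDP-glucose for glycogen, trehalose and the cell wall, stood at 10.1 and 8.8, 2.46-fold lower. *FPT1* (YKR011C, 6.7 and 4.9), the exocytosis gene *SRO77* (6.6 and 5.2) and YJR154W (6.6 and 5.4) completed the 12 lowest. YJR154W shared its rounded difference of -1.2 with other genes, among them *CHO1* and *OPI3*, and was placed ahead of them by the finer difference in the authors' deposited table. Each of the 12 was lower in footprints at 15 °C too, from -0.84 for *ACM1* to -2.55 for *MAG1*.

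**Figure D2:**
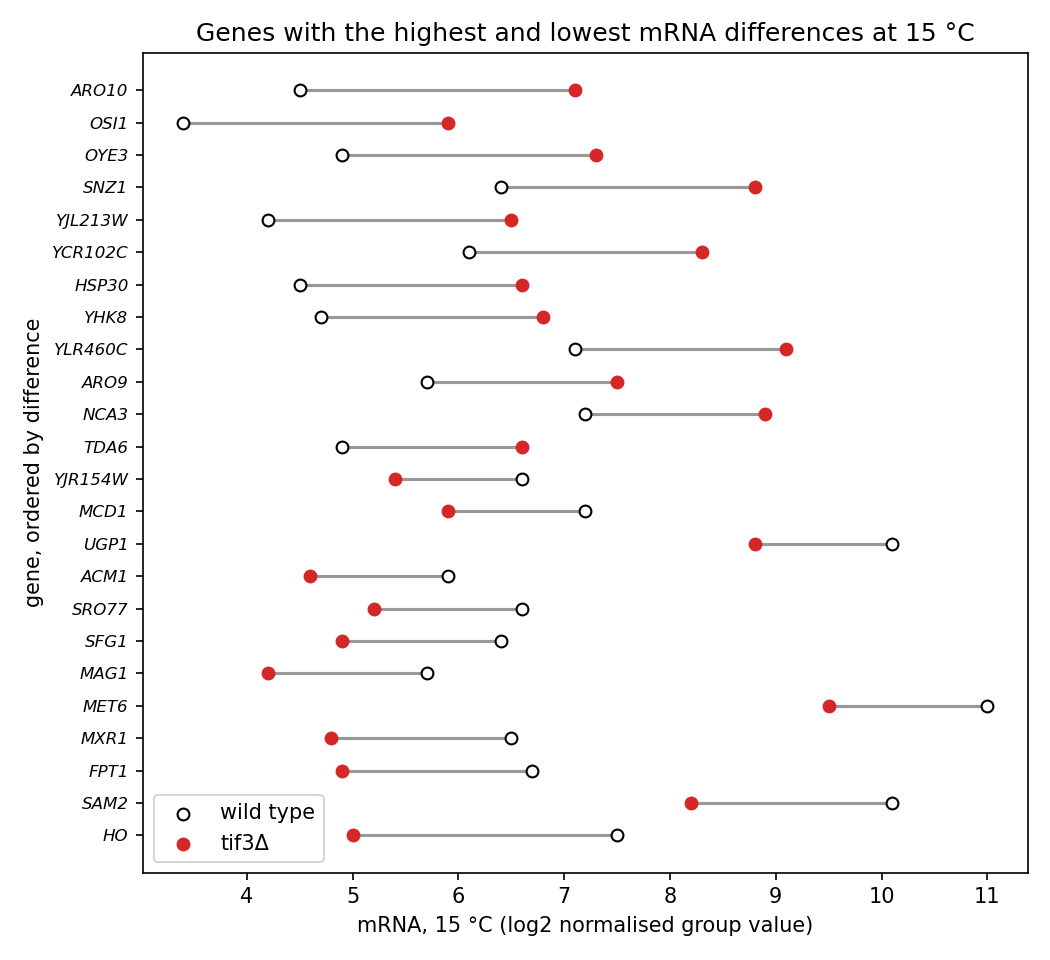
Log2 normalised mRNA at 15 °C in wild type (open circles) and *tif3*Δ (filled circles) for the 12 genes with the highest and the 12 with the lowest difference for genes whose normalised values averaged at least 32. The line between the circles is longest for *ARO10*, at 4.5 and 7.1, on the higher side and for *HO*, at 7.5 and 5.0, on the lower side.

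Ribosomal protein genes were higher almost without exception. Ribosomal proteins are the structural proteins of the large (60S) and small (40S) subunits, and their genes are transcribed together as growth demands. Of 80 measured large-subunit genes, 79 were higher in *tif3*Δ, 52 of them at least 1.5-fold, and the median log2 difference was 0.6 (1.52-fold). Of 56 small-subunit genes, 55 were higher, 32 at least 1.5-fold, with the same median of 0.6. Together that was 134 of 136 genes, against 44.9% of all genes, and their summed share of the normalised mRNA was 20.8% in wild type and 27.5% in *tif3*Δ.

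Within the large subunit, *RPL4B* stood at log2 12.6 and 13.8 and its paralog *RPL4A* at 12.8 and 13.9, the highest differences of the list. *RPL41A*, one of the shortest coding genes of the genome, was level at 10.1, and its copy *RPL41B* stood at 10.2 and 10.3. In the small subunit *RPS29B* was the highest, at 9.2 and 10.3, followed by *RPS26A* at 11.1 and 12.1. *RPS28B*, whose protein represses its own mRNA by promoting its decay, was the single member with a lower value, at 9.1 and 8.9. Many ribosomal proteins come from near-identical gene pairs that share reads, so the values of single paralogs are uncertain.

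The footprints of ribosomal protein genes moved in the same direction by somewhat less. At 15 °C, 71 of 80 large-subunit and 51 of 56 small-subunit genes were higher in footprints, with median log2 differences of 0.43 and 0.40, against 49.9% of all 5119 genes with footprints in both genotypes. At 37 °C the same genes had lower mRNA in *tif3*Δ, 77 of 80 and 55 of 56, with medians of -0.35 and -0.4, against 45.8% of all genes lower there. That opposite direction stands beside the different mating-type mRNAs at the temperatures. It also stands beside the relation of the mRNA difference to coding length over all genes, which changed sign as well. That correlation was -0.290 at 15 °C and 0.341 at 37 °C, and most ribosomal protein genes are short. The part of either was not tested.

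Genes that build ribosomes differed far less than the genes of the ribosome's proteins. Of 46 genes of the small-subunit processome, which cuts and folds the precursor of small-subunit rRNA, 25 were higher and 14 lower, and none reached 1.5-fold. Of 66 genes of 60S assembly, 39 were higher and 20 lower, with 1 at 1.5-fold, the cytoplasmic assembly factor *REI1* (8.6 and 9.2). The median of both lists was 0.1. Among all genes, 44.9% were higher, 43.7% lower and 8.11% at least 1.5-fold higher. All 9 listed subunit genes of RNA polymerase I, which transcribes rRNA, were higher. Their median was 0.2, with differences from 0.1 to 0.5. Footprints gave a larger difference than mRNA for both assembly lists, with medians of 0.49 for the processome and 0.55 for 60S assembly, where 62 of 66 genes were higher. The 70 mitochondrial ribosomal protein genes, by contrast, had a median mRNA difference of 0, with 26 higher and 33 lower, the lowest being *MRPL50* at 6.6 and 5.8.

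Translation factors followed part of this pattern. Of 13 elongation and termination factors 10 were higher and 4 reached 1.5-fold, against 44.9% and 8.11% of all genes. *TEF1* and *TEF2*, the identical genes of the elongation factor eEF1A that cannot be told apart by most reads, stood at log2 15.9 and 16.5 and at 15.9 and 16.6. *EFT2*, for elongation factor 2, stood at 13.8 and 14.4, and *TMA19* at 12.5 and 13.1. Of 26 initiation factors other than eIF4B, 17 were higher, 5 lower and none reached 1.5-fold. *TIF2*, a gene of eIF4A, with which eIF4B works, stood at 12.7 and 13.1. The helicase gene *DED1* stood at 10.5 and 10.9, its paralog *DBP1* at 5.2 and 4.8, and *TIF4632*, one of the genes of the scaffold eIF4G, at 7.5 and 7.2. The 22 aminoacyl-tRNA synthetases were near level, with 11 higher, 4 lower and differences from -0.3 to 0.3.

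Among the 10 genes with the largest wild-type values, the eEF1A genes were higher and several glycolytic genes lower. *ADH1*, the main alcohol dehydrogenase, stood at 15.0 and 14.4 and the phosphoglycerate mutase *GPM1* at 14.3 and 13.6. *TDH3* (15.5 and 15.3) and *TDH2* (14.6 and 14.1), for glyceraldehyde-3-phosphate dehydrogenase, were lower by less, *FBA1* was level at 15.2, *PDC1* stood at 14.9 and 15.0, and the pyruvate kinase *CDC19* at 14.4 and 14.7. Over the 21 measured genes of glycolysis and fermentation, 11 were lower and 7 higher, with a median of -0.1. Among all genes, 43.7% were lower and 44.9% higher. The largest value of all, YLR154C-G at 16.4 and 17.6, belongs to an open reading frame inside the rRNA genes and was kept out of the shares above.

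The proteasome, the complex that degrades ubiquitin-tagged proteins, went the opposite way from the ribosome. Of its 33 subunit genes 31 were lower in *tif3*Δ, 2 were level and none was higher, against 43.7% of all genes lower, and the median log2 difference was -0.4. The differences were small and even, so only 3 genes reached 1.5-fold, 9.09% of the list, close to the 7.40% of all genes. The yeast genes of the proteasome are known to share an activator, Rpn4, and a promoter element for it. Promoter stretches of the 3 genes past 1.5-fold are shown for this reason, with the element GGTGGCAAA or its reverse complement in capitals, on the strand of the gene and in R64 coordinates.
RPT2 (chrIV:437906-437934, plus strand): gtttttctccGGTGGCAAAtgtctctttt
PRE2 (chrXVI:732184-732212, plus strand): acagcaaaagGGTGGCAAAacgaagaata
RPT1 (chrXI:174048-174076, plus strand): attaccgaatTTTGCCACCcgaaaactaa

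These matches begin 131 bases before the start codon in *RPT2* and 155 bases before it in *PRE2* and *RPT1*. *RPT2*, an ATPase subunit of the 19S regulatory particle, had log2 levels of 9.6 in wild type and 8.6 in *tif3*Δ, 2-fold lower. *PRE2*, the subunit with chymotrypsin-like activity in the 20S core, stood at 9.4 and 8.7. *RPT1*, another ATPase subunit, stood at 10 and 9.3. At the other end *RPN8* and *SEM1* were level, at 9.0 and 7.1.

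Among 500-base windows upstream of the start codon, GGTGGCAAA on either strand was present in 27 of 33 proteasome genes and in 1.74% of 5183 genes. The 27 had a median difference of -0.4 and the 6 without it -0.2. Of 63 other genes with the element, 41 were lower and 17 higher, and 17.5% were at least 1.5-fold lower. A match of letters is a description of these windows and not evidence of binding. *RPN4* itself, chosen after its values were seen, was level in mRNA at 9.0. The lower proteasome mRNA was only partly met by footprints, 21 of 33 lower against 49.6% of all genes, with a median of -0.17. In mRNA at 37 °C, 23 of the 33 genes were lower, with a median of -0.2.

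Genes that peak at the start of S phase were lower as a group. This list of 42 genes was put together after values had been seen, so its count describes it and gives no independent evidence of its direction. Of the 42, 39 were lower in *tif3*Δ, 24 of them at least 1.5-fold, against 43.7% and 7.40% of all genes, and the median was -0.6. Many of these genes are known targets of the factor MBF, which recognises the element ACGCGT, the MCB box. Stretches of 3 promoters from the lower end of the list are shown with this element in capitals, on the strand of the gene.
CLB6 (chrVII:706861-706890, minus strand): atttaacgaccaACGCGTattcttcgcgtt
MCD1 (chrIV:444379-444408, plus strand): actcgaggagggACGCGTcgagaaaatcgc
RNR1 (chrV:298632-298661, plus strand): gttgaatagaggACGCGTaaaaacgatatg

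The S-phase cyclin *CLB6* stood at log2 4.8 in wild type and 2.8 in *tif3*Δ, 4-fold lower from a low level. *RNR1*, the large subunit of ribonucleotide reductase, stood at 9.7 and 8.6, 2.14-fold lower. *TOS4*, a protein with a forkhead-associated domain, stood at 6.7 and 5.5. The replication clamp *POL30* stood at 8.3 and 7.4 and the single-strand binding protein *RFA1* at 8.0 and 7.0. The 2 members with higher values were *ASF2* (5.7 and 6.0) and *GIC1* (5.4 and 5.5).

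ACGCGT was present in 28 of the 42 promoter windows and in 5.54% of all. The motif, like the list, was chosen after values had been seen, and many list genes are known MBF targets. Its share in the list and the medians by motif are therefore description and not independent evidence. List members with ACGCGT had a median of -0.7 and members without it -0.2. Outside the list, 152 of 259 genes with the element were lower and 83 higher, and 18.5% were at least 1.5-fold lower, against 7.40% of all genes. In the same cells footprints were lower for 34 of 42 list members, with a median of -0.41. The 37 °C mRNA values were lower for 39 of 42, with a median of -0.75.

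The G1 cyclins *CLN2* (8.3 and 7.2) and *CLN1* (7.2 and 6.4), which drive entry into the cycle, were lower, while *CLN3*, which acts before them, stood at 7.5 and 7.3. Of the mitotic cyclins *CLB2* stood at 7.3 and 6.7 and *CLB1* at 9.0 and 8.7. Over 16 measured genes of cyclins and their inhibitor *SIC1*, 12 were lower, 2 higher and 4 at least 1.5-fold lower. The shares over all genes were 43.7% lower and 7.40% at least 1.5-fold lower. *SIC1*, which holds back S phase, stood at 7.6 and 7.9, and the cyclin *PCL7* at 6.1 and 6.6. Histone genes, which are also made in S phase, did not share this direction at 15 °C, where 7 of 11 were higher, 3 lower and none reached 1.5-fold. *HTA1*, for histone H2A, stood at 10.8 and 11.3, and the linker histone *HHO1* at 8.1 and 7.6. At 37 °C all 11 were lower, with a median of -1.7.

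Genes of iron uptake were higher. The iron regulon is known to be switched on by Aft1 and Aft2 when iron is short, and it holds reductases, the high-affinity oxidase and permease, and siderophore carriers. Of 26 measured genes 23 were higher in *tif3*Δ, 14 at least 1.5-fold, against 8.11% of all genes, with a median of 0.6. Promoter stretches of an oxidase, a reductase and a siderophore carrier gene from the higher end of the list are shown with the Aft1 core TGCACCC in capitals, on the strand of the gene.
FET3 (chrXIII:388560-388588, plus strand): atcttcaaaagTGCACCCatttgcaggtg
FRE4 (chrXIV:739503-739531, plus strand): gtctaaaaattTGCACCCtatttaacata
ENB1 (chrXV:21431-21459, minus strand): cggcttacaatTGCACCCctctgtggctt

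*FET3*, the multicopper ferroxidase, stood at log2 9.0 in wild type and 10.5 in *tif3*Δ, 2.83-fold higher. Its permease partner *FTR1* stood at 8.9 and 9.8. The ferric reductase *FRE4* stood at 5.0 and 6.2, and the siderophore carriers *SIT1* and *ENB1* at 7.5 and 8.6 and at 7.0 and 8.1. Inside the cell, the iron-sulfur scaffold *ISU2* stood at 7.0 and 8.2. *TIS11*, also called *CTH2*, which degrades mRNAs of iron-using proteins, stood at 4.9 and 5.6. *AFT1* was at 7.1 and 7.6, and the 2 lower members were the copper chaperone *ATX1* (6.1 and 6.0) and the vacuolar oxidase *FET5* (8.1 and 8.0).

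TGCACCC was present in 19 of the 26 windows and in 2.18% of all. This motif was chosen after values had been seen, for a list known to answer to Aft1 and Aft2, so its share is description only. List members with TGCACCC had a median of 0.7 and those without it 0.4, while 49 of 94 other genes with the motif were higher and 39 lower. The mRNA difference was not met by footprints at 15 °C, where 12 of 24 members were higher and 12 lower and the median was 0.02. *FET3* had a log2 footprint difference of -0.12. In 37 °C mRNA 24 of 26 were higher, with a median of 0.4, against 44.2% of all genes higher there.

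Hexose transporters and sensors were higher in both readouts. All 9 measured of 17 listed genes had higher mRNA, 6 at least 1.5-fold, against 44.9% and 8.11% of all genes. Their median was 0.8, and all 9 had higher footprints, with a median of 1.27. *HXT4* stood at log2 9.8 and 11.4, 3.03-fold higher. *HXT3*, a low-affinity carrier used in ample glucose, stood at 12 and 13.1, and *HXT2* at 10.3 and 11.1. The near-identical *HXT6* and *HXT7* stood at 10.8 and 11.6 and at 10.9 and 11.7, and *HXT5* at 6.9 and 7.6. *HXT1* (11.2 and 11.7) and the glucose sensors *SNF3* (5.8 and 6.3) and *RGT2* (6.5 and 6.9) were higher by less than 1.5-fold. The list's median in mRNA was 0.3 at 37 °C.

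Amino acid synthesis was not of 1 direction. Over all genes, 44.9% were higher and 8.11% at least 1.5-fold higher. All 11 genes of leucine, isoleucine and valine synthesis were higher in *tif3*Δ, 6 at least 1.5-fold, with a median of 0.6. *LEU4*, the first committed enzyme of the leucine branch, stood at log2 10.2 and 11.1, *ILV2*, the shared acetolactate synthase, at 10.1 and 10.9, and *ILV3* at 10.9 and 11.7. The others past 1.5-fold were *ILV5* (11.5 and 12.1), *LEU1* (10.7 and 11.4) and the aminotransferase *BAT2* (8.5 and 9.2). The activator *LEU3* was near level at 7.3 and 7.4. Footprints of the 11 genes at 15 °C were split in direction, from -0.88 for *LEU9* to 0.88 for *BAT2*, with *LEU4* at -0.09. At 37 °C, 9 of the 11 were higher with a median of 1.0, among them *LEU1* with a difference of 3.6 there and 0.7 at 15 °C. Of 7 histidine genes 5 were higher, 2 of them at least 1.5-fold, and 2 lower, from *HIS4* at 10.4 and 9.9 to *HIS3* at 8.1 and 8.9. In the arginine list *ARG1* (10.2 and 9.4) and *ARG4* (10.3 and 9.7) were lower, and the lysine list had 4 higher and 5 lower members with none at 1.5-fold, the lowest being *LYS1* at 7.2 and 6.7.

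Sulfur and methionine genes were more often lower than higher, with *SAM2* and *MET6* the lowest. Of 28 measured genes 16 were lower, 8 higher, 7 at least 1.5-fold lower and 1 at least 1.5-fold higher, with a median of -0.15. The shares over all genes were 43.7% lower and 7.40% at least 1.5-fold lower. Beside *SAM2* and *MET6*, the genes past 1.5-fold were *STR3* (4.2 and 2.8), *MET17* (8.6 and 7.5), *MET13* (7.2 and 6.4), *MET14* (6.6 and 5.8) and *MET5* (7.4 and 6.8). *MET17* makes homocysteine from sulfide, *MET14* and *MET5* belong to sulfate reduction, and *MET13* makes the methyl donor for *MET6*. *HOM2*, a step shared with threonine synthesis, was higher at 10.9 and 11.5, and the activators *MET4* (8.1 in both) and *MET28* (4.3 and 4.1) were close to level. Footprints were lower for 23 of the 28, with a median of -0.52, and at 37 °C 16 of 27 had higher mRNA. The core CACGTG, recognised by Cbf1, is shown in capitals for 2 of these promoters.
SAM2 (chrIV:1454770-1454799, minus strand): aatatttctaccCACGTGactataattgag
MET17 (chrXII:732230-732259, plus strand): aatggcaaatggCACGTGaagctgtcgata

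CACGTG was present in 19 of 28 list windows and in 6.27% of all, and the 306 other genes with it were near the background, 145 higher and 124 lower. This core was also chosen after values had been seen. Purine synthesis was lower for 11 of 17 genes, 5 of them at least 1.5-fold, against 43.7% and 7.40% of all genes, with a median of -0.2. *ADE17*, of the last steps to inosine monophosphate, stood at 11.1 and 10.1 and *ADE2* at 11.0 and 10.2. *MTD1* (9.9 and 9.2), *ADE1* (10.5 and 9.9) and *ADE13* (11.3 and 10.7) were also past 1.5-fold, while *ADE8* stood at 8.1 and 8.7. The list had the opposite direction at 37 °C, with 12 of 17 higher and a median of 0.6.

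Membrane lipid genes tended lower. Over all genes, 43.7% were lower and 7.40% at least 1.5-fold lower. In a list of 19 phospholipid genes, put together after values had been seen, 14 were lower, 5 at least 1.5-fold, with a median of -0.3. *CHO1*, the phosphatidylserine synthase, stood at log2 10.3 and 9.1, and the methyltransferases *OPI3* (10.6 and 9.4) and *CHO2* (9.7 and 8.7), which use S-adenosylmethionine to make phosphatidylcholine, were lower as well. These 3 genes lie on one route to phosphatidylcholine, and their log2 footprint differences were -0.89, -2.1 and -1.5. The choline carrier *HNM1* (10.2 and 9.5) and the choline kinase *CKI1* (7.5 and 6.8) were the others past 1.5-fold. *PIS1*, which makes phosphatidylinositol, stood at 9.4 and 9.8. Of 16 fatty acid genes 10 were lower, with the synthase *FAS2* at 12.5 and 11.8, the carboxylase *ACC1* at 12.1 and 11.5 and the desaturase *OLE1*, which is itself known to be induced by cold, at 12.6 and 11.9. Of 25 sterol genes 15 were lower and 4 at least 1.5-fold, led by *ERG13* (9.5 and 8.7) and *ERG20* (10.1 and 9.4), while *ERG5* stood at 8.0 and 8.4.

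Respiratory genes were a little higher. Of 39 nuclear genes of the respiratory chain and ATP synthase 34 were higher in *tif3*Δ, against 44.9% of all genes. Only 3 reached 1.5-fold, 7.69% of the list against 8.11% of all genes, and the median was 0.3. Those 3 were *NDE1*, the external NADH dehydrogenase, at log2 9.9 and 10.6, *QCR10* at 5.8 and 6.4 and *ATP19* at 6.7 and 7.3. The median at 37 °C was also 0.3. The 4 listed genes of the mitochondrial genome, *ATP6* (3.6 and 4.4), *OLI1* (5.7 and 6.0), *COX3* (3.6 and 4.3) and *SCEI* (3.9 and 4.9), were higher at 15 °C from low levels and lower at 37 °C.

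Stress and cold genes showed no common direction. Of 35 heat shock and chaperone genes 18 were higher and 13 lower, against 44.9% higher and 43.7% lower among all genes. *HSP12* stood at log2 10.3 and 11.1 and the nucleotide exchange factor *FES1* at 8.7 and 9.4, while *HSC82*, an Hsp90 gene, stood at 12.5 and 11.8. Of 39 genes of the general stress response 19 were lower and 16 higher, from *GPD1*, which makes glycerol, at 11.2 and 10.1 to *DDR2* at 5.9 and 7.4. Of 16 genes known to be induced by cold 9 were higher and 5 lower, with *OLE1* the lowest and *HSP12* the highest, and the cold-shock mannoprotein *TIR1* at 4.3 and 3.7. All 14 measured of 24 *PAU* genes, small cell-wall-type proteins of the cold and anaerobic response, were higher, with a median of 0.45, but they stood between 3.3 and 5.0 in wild type and are near-identical copies, some with the same values in every column.

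The mRNA of the pheromone response was slightly lower at 15 °C. Of 18 genes 11 were lower, against 43.7% of all genes, and 5 higher, with a median of -0.2. They ran from *CIK1* (6.0 and 5.4), the only member at least 1.5-fold lower, to *PRM4* (5.4 and 6.1). Footprints at 15 °C did not share this direction. Most members were higher there, up to 1.52 for *FIG2* and 1.39 for *PRM4*, and others were lower, down to -0.75 for *MSG5*. At 37 °C the same list was higher for 17 of 18 genes, with a median of 2.05. Those values stand beside the **a**-specific and α-specific mRNAs above, both higher in *tif3*Δ than in wild type at 37 °C, and their part was not tested.

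A last list, again put together after values had been seen, held genes of drug efflux and of the old yellow enzymes. Of 24 measured genes 17 were higher, 9 at least 1.5-fold, 4 were lower and 2 of those at least 1.5-fold. The shares over all genes were 44.9% higher and 8.11% at least 1.5-fold higher. The enzymes *OYE2* (log2 11.5 and 12.7) and *GRE2* (9.7 and 11.0) and the transporter *FLR1* (6.9 and 7.9) joined the genes named above. The main drug pump *PDR5* went the other way at 11.0 and 10.5, as did *YOR1* at 8.9 and 8.3. *GRE2* and *FLR1* were not higher at 37 °C, with differences of -0.5 and -0.3.

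Across all genes, mRNA and footprint differences at 15 °C ran in the same direction for most genes with a large mRNA difference. Of the 421 genes at least 1.5-fold higher in mRNA, 406 had footprints in both genotypes, 329 of these (81.0%) were higher in footprints, and 195 by at least 1.5-fold, against 15.8% of all genes. Of the 384 lower genes, 378 had footprints, 300 (79.4%) were lower, and 183 by at least 1.5-fold, against 21.0% of all genes. The Spearman correlation between both differences was 0.371 over 5119 genes, which share libraries and are not independent.

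The mRNA differences at 37 °C were less alike. Of the 421 genes 419 were listed at 37 °C, where 220 were higher and 173 lower. At least 1.5-fold higher there were 111, against 10.4% of all genes at 37 °C, and 35 were at least 1.5-fold lower. Of the 384 lower genes 380 were listed, 246 were lower and 104 higher, with 112 at least 1.5-fold lower, against 10.1% of all genes, and 25 at least 1.5-fold higher. The correlation over 5181 genes was 0.152.

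Short genes tended to be higher and long genes lower without eIF4B at 15 °C. The Spearman correlation of the mRNA difference with coding length was -0.290 over 5187 genes, and -0.252 without the ribosomal protein genes, most of which are short. In the shortest 10% of genes (coding length 357 nt at the median) the mean log2 difference was 0.23, and 19.4% of them were past 1.5-fold on the higher side and 3.42% on the lower side. In the longest 10% (3567 nt) the mean was -0.20, with 1.54% and 13.9%. The genes at least 1.5-fold higher had a median coding length of 870 nt, those lower 1555.5 nt, and all genes 1269 nt. At 37 °C the relation had the opposite sign, with a correlation of 0.341 and means from -0.21 in the shortest 10% of genes to 0.25 in the longest.

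**Figure D3:**
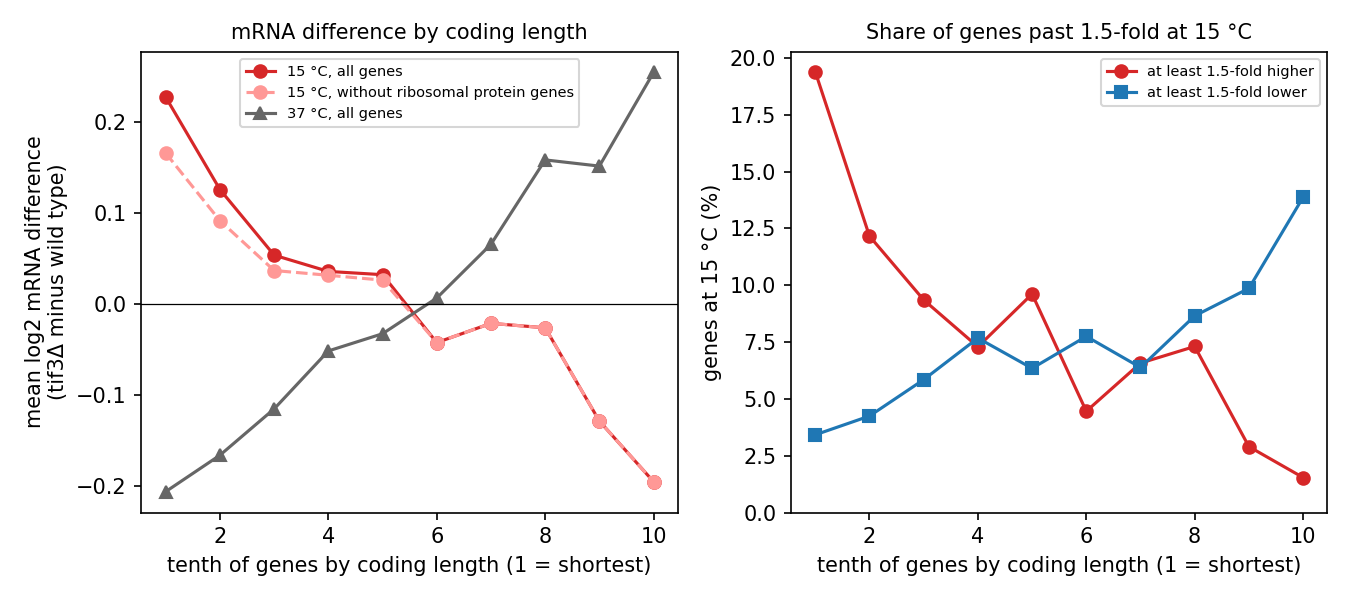
Left, mean log2 mRNA difference (*tif3*Δ minus wild type) in 10 bins of genes ordered by coding length (bin 1 is the shortest) at 15 °C for all genes, at 15 °C without ribosomal protein genes, and at 37 °C. Right, percentage of genes past 1.5-fold in each direction at 15 °C in the same bins, from 19.4% higher and 3.42% lower in the shortest to 1.54% and 13.9% in the longest.

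The wild-type mRNA level had a weak relation to the difference. The correlation with the wild-type value, which also enters the difference, was 0.0836 over all genes and 0.0247 without them. In the 10% of genes with the largest wild-type values the mean difference was 0.17 for all genes and 0.03 without ribosomal protein genes.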

How the data were processed

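mRNA libraries and ribosome footprint libraries were sequenced by the authors from wild type and *tif3*Δ cells. Per the submitters' processing notes the tools were TopHat2 2.0.7, Bowtie2 2.0.6, CASAVA 1.8 and DESeq, with sacCer2 as the build; the notes give no roles or order. The deposited tables hold log2 normalised values, 1 for each gene and group, and the authors' log2 differences. The sources used here do not give how replicates were combined or whether strand was used in counting. No column holds a single library, so the planned tests were replaced by counts and medians.

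The log2 mRNA difference at 15 °C was recomputed as *tif3*Δ minus wild type. It matched the authors' deposited difference within 0.0996, the size of the rounding, so a recomputed difference counts as 1.5-fold from 0.6 upward. Genes needed a mean normalised value of 10 over both genotypes. *TIF3* was left out of counts. Genes were named as follows: *TIF3*, the 12 highest and 12 lowest differences (genes averaging at least 32), the 10 largest wild-type values, the members just inside the limit, and in each list members from the highest, the lowest and those 1.5-fold apart; in long lists only some of these are printed, and the counts cover the rest. Ties were ordered by the authors' deposited difference. For other genes, the choice was made with their values in view. The members and all 51 gene lists were chosen with earlier results of these data known, 4 of the lists and 5 of the 10 motifs after the values had been seen. Footprint differences used genes with footprints in both genotypes.

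Gene names were matched to RefSeq R64 for 5188 of 5190 genes, coding lengths were taken from it, and motifs were searched on both strands in the 500 bases upstream of each start codon. Coordinates are those of the R64 matches. Spearman correlations were computed with scipy 1.17.1 (Python 3.11.15, pandas 2.3.3), and the counting was tested on simulated data. Depth is unknown for mRNA, so no interval or floor is given.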

Additional observations from a re-analysis of the deposited data

How the results depend on the processing

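Every value compares 1 combined value a genotype, so no spread, no single replicate left out and no test stands behind it, and rounding to 0.1 alone can move a gene over the 1.5-fold line. No paired analysis was possible because the mRNA columns combine the replicates of each genotype. In the authors' deposited table, with unrounded differences, 361 genes were at least 1.5-fold higher and 320 lower. At 2-fold the counts were 84 and 84. With 10 added to the values before the logarithm, 238 genes were at least 1.5-fold lower. A limit of 32 on the mean left 2 higher *PAU* genes, 1 lower α-specific gene and 4 higher vitamin synthesis genes. A limit of 100, chosen after seeing the data, gave 151 genes at least 1.5-fold lower, 0 *PAU* genes, 7 lower cyclin genes, 7 lower pheromone genes, 0 α-specific genes, 21 lower G1/S genes, 10 higher drug efflux genes and 1 higher vitamin gene, with fewer genes left to count. Leaving out ribosomal protein genes, also chosen after seeing the data, took the correlation with wild-type mRNA to 0.0247. The 12 highest and 12 lowest genes kept their sign under every setting that kept the gene, but this was fixed in advance. Limits and identical rows counted once leave a gene's value alone, and adding 1 or 10 cannot turn a sign. Centring took off a median of 0, and the authors' differences lay within 0.0996 of the recomputed ones. The kept signs are therefore no check on these genes. For each list only the count on its larger side was rerun, so whether the larger side changed was not examined.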

Other observations

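Some gene groups outside the comparisons above held single members that stood far from the rest of their list. In the list of endoplasmic reticulum translocation and folding, 13 of 25 genes were lower and 9 higher, but *HAC1*, the transcription factor of the unfolded protein response, stood at log2 10.1 in wild type and 11.3 in the mutant, while *KAR2* (10.5 and 10.4) and *PDI1* (11.3 and 11.0), known targets of Hac1, were not higher. Reads in spliced and unspliced *HAC1* mRNA were not separated here. Among amino acid permeases, where 13 of 20 genes were higher, the proline permease *PUT4* stood at 5.9 and 7.2 and the general permease *GAP1* at 7.6 and 6.8. In the phosphate and zinc list, where 11 of 18 were lower, *PHO89* (2.8 and 4.6), *ZPS1* (5.1 and 6.4), *ZRT1* (9.6 and 10.4) and *PHO84* (5.2 and 5.8) were higher and the acid phosphatase *PHO3* (10.3 and 9.6) was lower. In vitamin synthesis, a list put together after values had been seen, the biotin gene *BIO2* stood at 8.4 and 7.4. Its neighbours in the pathway, *BIO3* and *BIO4*, stood at 5.4 and 6.1 and at 5.3 and 6.4. *SNZ2* (6.5 and 5.9) and *SNZ3* (6.6 and 5.9), relatives of *SNZ1*, went the other way from it.

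Nuclear pore and glycosylation genes were more often lower than higher, and the other lists here were split or more often higher. The shares over all genes were 43.7% lower and 44.9% higher. Of 32 nuclear pore genes 21 were lower and 6 higher, with 1 at 1.5-fold, *MLP1* (6.3 and 5.7), and the median coding length of this list was 2353.5 nt. Of 27 glycosylation genes 18 were lower and 5 higher, and their footprints had a median log2 difference of -0.81. The citric acid and glyoxylate genes were split, 11 higher and 10 lower. The aconitase *ACO1* stood at 9.7 and 8.8 and the cytosolic malate dehydrogenase *MDH2* at 8.1 and 9.1. Cell wall genes were split as well, 16 higher and 19 lower, with *CWP1* at 9.8 and 8.6 and *CCW12* at 13.8 and 14.6. Of 34 mRNA decay factors 17 were higher and 12 lower, and of 29 redox genes 14 were higher and 10 lower. The 15 vacuolar ATPase genes had 10 higher members, among them *VPH1* at 10.1 and 10.8.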
